A study of Mus musculus with 18 samples.

Results

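The 7 haematopoietic and immune regulator miRNAs described here are the count entries mmu-mir-142a, mmu-mir-223, mmu-mir-150, mmu-mir-155, mmu-mir-146a, mmu-mir-146b and mmu-mir-21a, chosen by name from 1006 miRNA precursors. All 7 passed the filter on low counts that left 273 precursors for testing. They were read in 18 small-RNA libraries. The cells were Baf3, a line of mouse pro-B cells kept in interleukin-3. The cells carried fluorescent reporters of mutated miR-15a and miR-16 and had been given Cas9 with 1 guide RNA. Control libraries came from cells with guides against Rag1, SAFB libraries from cells with guides against Safb1 and Safb2, and ERH libraries from cells with guides against Erh. Each genotype had 2 guides, each guide 1 polyclonal population, and each population 3 libraries, 1 in each of 3 labelled batches. Knockout cells were taken by flow sorting on a derepressed miR-15a reporter and regrown, so they were selected for weak miR-15a activity, and the labels do not say how control cells were handled at that step. All 3 genotypes share the reporters, Cas9 and puromycin selection. No label says that the 3 libraries of a population were separate cultures, so the p-values may measure technical spread only.

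SAFB proteins and ERH are partners of the Microprocessor, the nuclear complex that cuts miRNA hairpins out of their primary transcripts, and the study asked about cluster assistance, in which one hairpin helps a neighbour on the same transcript to be cut. A mature miRNA guides Argonaute to messenger RNAs chiefly through its seed, the bases near its 5′ end. The 7 miRNAs are textbook regulators of blood cells. miR-142 is made throughout the haematopoietic lineages, miR-223 is typical of myeloid cells, and miR-150 rises in mature lymphocytes and restrains Myb. miR-155 is induced on lymphocyte and macrophage activation. The miR-146 pair is induced by NF-kB and dampens Toll-like receptor signalling, and miR-21 is an abundant miRNA of growing cells.

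The sequences below, from RefSeq on build GRCm38.p6, are shown because the rows counted in the table are precursors and because the 5p arms of the miR-146 pair can only be told apart near their 3′ ends. Capitals mark the seed, bases 2 to 8. All 7 precursors matched the reference by name, with 13 mature entries. For mmu-mir-150 the reference held only miR-150-3p. The seed marked for it is that of the 3p arm, and the sequence of miR-150-5p is not shown.
mmu-miR-142a-5p: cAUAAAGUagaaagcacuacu
mmu-miR-142a-3p: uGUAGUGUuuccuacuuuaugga
mmu-miR-223-3p: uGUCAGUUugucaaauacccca
mmu-miR-150-3p: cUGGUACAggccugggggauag
mmu-miR-155-5p: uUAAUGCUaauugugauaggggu
mmu-miR-146a-5p: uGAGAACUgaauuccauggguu
mmu-miR-146b-5p: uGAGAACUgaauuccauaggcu
mmu-miR-21a-5p: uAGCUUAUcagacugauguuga
miR-146a-5p and miR-146b-5p share the seed GAGAACU, which no other mature miRNA in the table holds. They are identical at 20 of 22 bases, including the first 17, and differ by G18A and U21C, with positions counted from the 5′ end and the miR-146a-5p base first. How reads that fit both were assigned is not given in the sources used here, so the split between mmu-mir-146a and mmu-mir-146b is uncertain. The other sequences shown share no seed with each other. miR-21a-5p shares its seed with miR-21c, whose precursor had 0 counts in every library, and mmu-mir-21b and mmu-mir-142b had at most 1 and 8 counts. Each count sums both arms of a hairpin, miR-150-5p with miR-150-3p for example.

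In the GENCODE M21 annotation of GRCm38, none of the 7 genes has another miRNA gene within 10 kb on its own strand. mmu-mir-142a is at chr11:87756864-87756927, plus strand, in an intron of the non-coding gene Mir142hg, with Mir142b on the opposite strand. mmu-mir-223 is at chrX:96242817-96242926, plus strand, in an exon of the non-coding gene F630028O10Rik. mmu-mir-150 is at chr7:45121757-45121821, plus strand, outside other genes, with Mir5121 within 10 kb on the opposite strand. mmu-mir-155 is at chr16:84714140-84714204, plus strand, in an exon of its host transcript Mir155hg. mmu-mir-146a is at chr11:43374397-43374461, minus strand, outside other genes. mmu-mir-146b is at chr19:46342762-46342870, plus strand, in an intron of the protein-coding gene Mfsd13a. mmu-mir-21a is at chr11:86584067-86584158, minus strand, in an exon of the protein-coding gene Vmp1.

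The libraries held 2699323 to 4470073 miRNA counts, and the 4 spike-in RNAs took 0.165% to 0.366% of all counts. Marker miRNAs of red cell precursors (mir-451a, mir-144 and mir-486a) summed to at most 6.49 CPM, counts scaled to a common library size, in any library. mir-126a, a marker of endothelium and platelets, ranged over 4072 to 4586 CPM in control cells. Its SAFB range was 3112 to 3731 CPM and its ERH range 2920 to 3443 CPM. In control, SAFB and ERH libraries in turn, 4 neuronal markers summed to 1826 to 2229, 2143 to 2815 and 2333 to 3057 CPM. Most of that sum was mir-128, with means of 2026, 2476 and 2427 CPM in the same order. Of the 4, 1 had no count in any library. Liver mir-122 stood at 4.68 to 8.32, 6.21 to 15.3 and 7.67 to 34.2 CPM. The sum of 7 epithelial markers was 145 to 203, 196 to 225 and 150 to 185 CPM. Fibroblast and striated muscle markers overlapped between all genotypes. The part of these markers in the results was not tested. In bulk libraries, fewer cells of a type and less of a miRNA per cell cannot be told apart. CPM values carry TMM scaling (edgeR's trimmed mean of M-values), which takes most miRNAs as unchanged. With TMM itself, 56% of all 273 tested were called in SAFB and 53.8% in ERH. Whether that assumption holds for these cells was not tested. The median log2 fold change of all 273 miRNAs moves with the scaling, so changes are to be read against it. In SAFB it was 0.0083 with TMM, 0.043 with total miRNA counts and -0.23 with spike-ins. In ERH it was -0.061, 0.24 and 0.23, and in ERH against SAFB it was 0.042, 0.31 and 0.57, in the same order. The calls moved with it. In SAFB, 84 miRNAs were higher and 69 lower with TMM, and 44 and 58 with spike-ins. In ERH, 72 were higher and 75 lower with TMM, 108 and 33 with total counts, and 72 and 19 with spike-ins. ERH against SAFB had 65 higher and 43 lower with TMM, 115 and 8 with total counts, and 111 and 1 with spike-ins.

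Together the 7 miRNAs took 20.2% to 23.0% of all miRNA counts in control libraries, 20.7% to 24.2% in SAFB and 20.2% to 23.2% in ERH libraries. By mean CPM the control order was mmu-mir-142a, mmu-mir-21a, mmu-mir-223, mmu-mir-146b, mmu-mir-146a, mmu-mir-155 and mmu-mir-150. mmu-mir-142a ranked 2 of all precursors, mmu-mir-21a 5, mmu-mir-223 18, mmu-mir-146b 29, mmu-mir-146a 48, mmu-mir-155 51 and mmu-mir-150 143. Neighbours in this order did not overlap between libraries except mmu-mir-146a and mmu-mir-155, whose means were 1921 ± 244 and 1754 ± 103 CPM (SD, n = 6). The mature forms shown are 21 to 23 bases long, so the CPM levels were compared without scaling to length. In SAFB libraries mmu-mir-155 and mmu-mir-146a swapped places, again with overlapping ranges, and in ERH libraries the control order held with the same overlap.

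**Figure D1:**
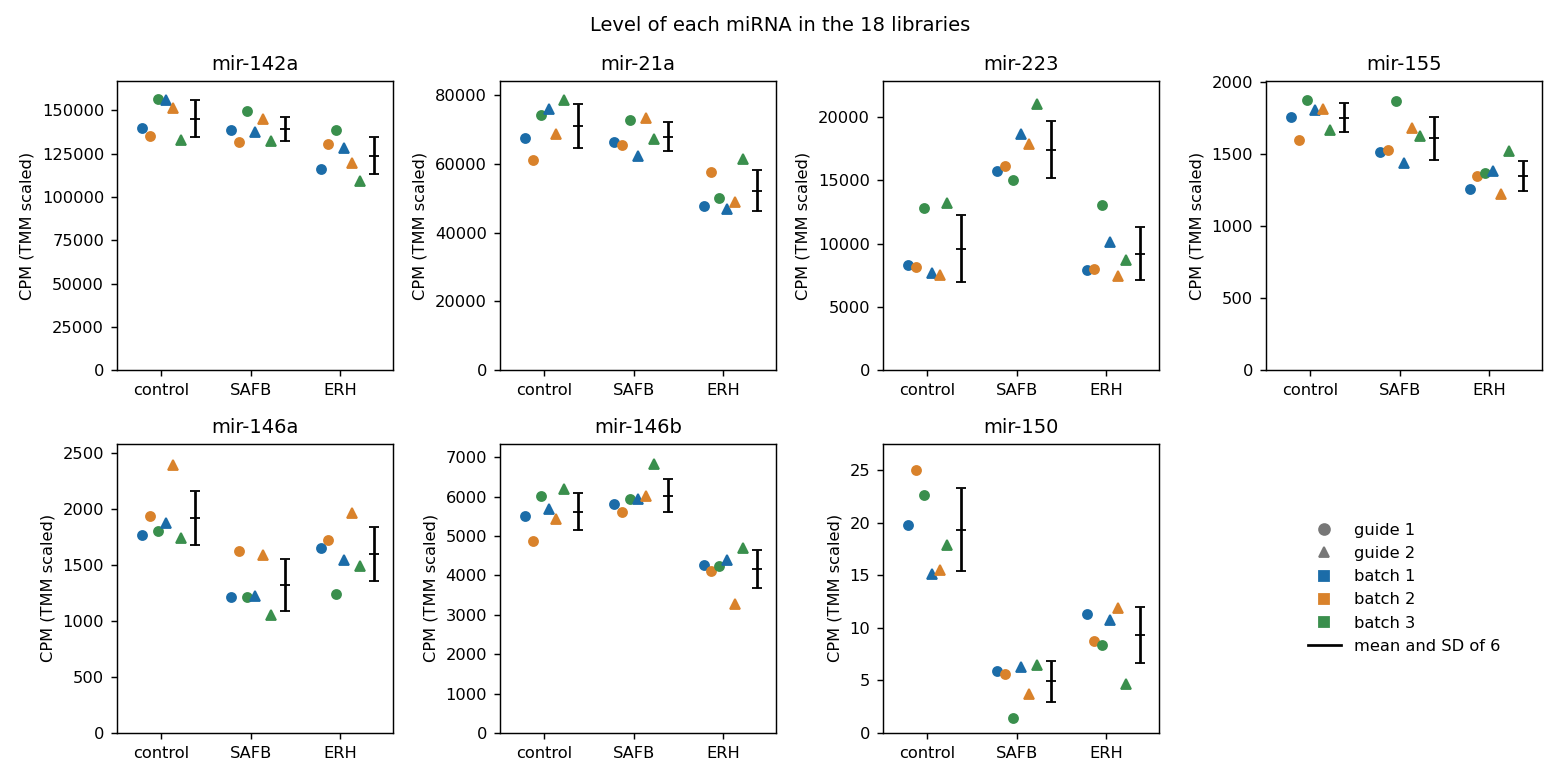
Level of each of the 7 miRNAs in CPM (TMM scaled, linear axis from 0) in the 18 libraries, by genotype. Circles are guide 1, triangles guide 2, colours the 3 batches, and bars the mean and SD of 6 libraries. All 6 SAFB libraries of mir-223 lie above all control libraries, all SAFB libraries of mir-146a and mir-150 lie below them, and the ERH libraries of mir-155, mir-146b and mir-150 lie below control.

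In SAFB knockout cells the myeloid miRNA mmu-mir-223 rose, and the lymphoid miRNA mmu-mir-150 and the feedback regulator mmu-mir-146a fell. The other 4 did not pass the test. The second lymphocyte marker read here, mir-181a, went the other way from mmu-mir-150. It rose by 0.58 on the log2 scale in SAFB (SE 0.10, edgeR, adjusted p = 5.44e-05), and its value was 0.33 (edgeR, adjusted p = 0.237) with spike-ins. The sum of the pair, nearly all of it mir-181a, ran from 2618 to 3623 CPM in control cells, from 3977 to 5498 CPM after SAFB loss and from 3446 to 4966 CPM after ERH loss. In all, 3 of the 7 members were called at an adjusted p under 0.05, against 56% of all 273 tested. 1 member was higher, against 30.8% of all, and 2 were lower, against 25.3%. The same 3 had no overlap between the 6 SAFB and 6 control libraries, against 36.6% of all. These counts are close to the shares of all tested. The members' median log2 fold change of -0.064 lies beside 0.0083 for all tested.

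mmu-mir-223 stood at 7511 CPM in the lowest, 8232 in the median and 13200 in the highest control library. In SAFB libraries it stood at 15010, 16990 and 21058 CPM, and in ERH libraries at 7452, 8352 and 13076 CPM. Every SAFB library was above every control and every ERH library. The rise in SAFB was 1.81-fold, 0.86 on the log2 scale (SE 0.15, edgeR quasi-likelihood test, adjusted p = 3.96e-05), and its rank moved from 18 to 12. All 4 guide-by-guide differences were positive, from 0.68 to 1.02. The level varied with batch in control cells: the 2 libraries of batch 3 were at 12805 and 13200 CPM, and the other 4 between 7511 and 8275. The difference within a batch ran from 0.45 to 1.11 on the log2 scale, smallest in batch 3. With spike-in scaling the log2 difference was 0.60 (edgeR, adjusted p = 0.0203). In ERH cells the log2 difference was -0.061 (SE 0.15, approximate 95% interval -0.35 to 0.23, edgeR, adjusted p = 0.769).

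mmu-mir-150 was the rarest of the 7. Its raw counts were 41 to 95 per control library, 5 to 27 per SAFB library and 18 to 45 per ERH library. In CPM the lowest, median and highest control libraries were at 15.1, 18.8 and 25.0. The SAFB libraries were at 1.44, 5.76 and 6.45 CPM and the ERH libraries at 4.67, 9.79 and 11.9 CPM. Neither knockout overlapped control, while the 2 knockouts overlapped each other. It fell by 1.96 on the log2 scale in SAFB (SE 0.27, edgeR, adjusted p = 1.21e-06), to 0.256 of control. In ERH it fell by 1.06 (SE 0.25, edgeR, adjusted p = 0.00103), to 0.480 of control. All 4 guide-by-guide differences were negative in each knockout, from -2.36 to -1.55 in SAFB and from -1.31 to -0.77 in ERH. Within batches the SAFB difference was -2.46 to -1.42 and the ERH difference -1.60 to -0.62. The SAFB call held with spike-in scaling, at -2.18. With spike-ins the ERH value was -0.71 (edgeR, adjusted p = 0.0905), and it was -0.75 (edgeR, adjusted p = 0.071) without the control guide 1 population when the filter and TMM were estimated again.

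mmu-mir-146a, which targets adaptors of Toll-like receptor signalling, stood at 1741, 1840 and 2396 CPM in the lowest, median and highest control library. The SAFB libraries were at 1054, 1224 and 1626 CPM, all below control, and the ERH libraries at 1238, 1601 and 1965 CPM, overlapping both. It fell by 0.54 on the log2 scale in SAFB (SE 0.11, edgeR, adjusted p = 0.000338), with guide-by-guide differences from -0.63 to -0.44 and within-batch differences from -0.65 to -0.42. With spike-in scaling this was -0.85. In ERH the log2 difference was -0.26 (SE 0.11, edgeR, adjusted p = 0.0571), and with batch as a block it was -0.27 (SE 0.070, edgeR, adjusted p = 0.00264). The ERH value moved to the other sign with other scalings, at 0.049 with total counts and 0.022 with spike-ins, neither of them called. It passed the test with counts summed per guide population (-0.22, edgeR, adjusted p = 0.0396), with population as a correlated block in limma voom (-0.26, adjusted p = 0.0288) and with no filter (-0.28, edgeR, adjusted p = 0.0207). It also passed without control guide 2 batch 3 (-0.29, edgeR, adjusted p = 0.0474) or without ERH guide 2 batch 2 (-0.33, edgeR, adjusted p = 0.0178).

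mmu-mir-146b carries the same seed as mmu-mir-146a and comes from another locus. Its lowest, median and highest control libraries were at 4884, 5591 and 6201 CPM, the SAFB libraries at 5599, 5939 and 6813 CPM and the ERH libraries at 3272, 4250 and 4697 CPM. SAFB overlapped control, with a log2 difference of 0.10 (SE 0.076, approximate 95% interval -0.049 to 0.25, edgeR, adjusted p = 0.277). With the filter and TMM estimated again it was called without control guide 2 batch 3 (0.20, edgeR, adjusted p = 0.0286), without SAFB guide 1 batch 2 (0.20, edgeR, adjusted p = 0.0397) or without the SAFB guide 1 population (0.33, edgeR, adjusted p = 0.00607), and with spike-ins it was -0.16. In ERH all 6 libraries were below control, and it fell by 0.43 (SE 0.076, edgeR, adjusted p = 3.47e-05). That ERH call was lost with total counts (-0.13, edgeR, adjusted p = 0.147) and with spike-ins (-0.17, edgeR, adjusted p = 0.636).

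mmu-mir-155, made from the Mir155hg transcript, was at 1600, 1782 and 1879 CPM in the lowest, median and highest control library. The SAFB libraries were at 1436, 1577 and 1867 CPM and the ERH libraries at 1223, 1359 and 1521 CPM. SAFB overlapped control and every ERH library was below it. The SAFB log2 difference was -0.12 (SE 0.071, approximate 95% interval -0.26 to 0.015, edgeR, adjusted p = 0.14), and it passed the test without SAFB guide 1 batch 3 (-0.17, edgeR, adjusted p = 0.0401). In ERH it fell by 0.38 (SE 0.071, edgeR, adjusted p = 8.65e-05). That call was lost with total counts (-0.070, edgeR, adjusted p = 0.45) and with spike-ins (-0.097, edgeR, adjusted p = 0.84).

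mmu-mir-142a, the pan-haematopoietic miRNA, was at 132729, 145557 and 156599 CPM in the lowest, median and highest control library. The SAFB libraries were at 131584, 138003 and 149452 CPM and the ERH libraries at 109283, 123942 and 138730 CPM, and both overlapped control. As a share of all miRNA counts it held 13.4% ± 0.659 of control, 13.2% ± 0.899 of SAFB and 14.1% ± 0.958 of ERH libraries (SD, n = 6). The SAFB log2 difference was -0.062 (SE 0.058, approximate 95% interval -0.18 to 0.052, edgeR, adjusted p = 0.378). In ERH it fell by 0.23 with TMM (SE 0.058, edgeR, adjusted p = 0.00162), but was 0.073 with total counts (edgeR, adjusted p = 0.214) and 0.047 with spike-ins (edgeR, adjusted p = 0.914). The ERH call was also lost when miRNAs under a mean of 100 counts were left out (-0.088, edgeR, adjusted p = 0.224), when the fit held only the 2 genotypes (-0.10, edgeR, adjusted p = 0.176), and without the ERH guide 2 population with the filter and TMM estimated again (-0.14, edgeR, adjusted p = 0.0712).

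mmu-mir-21a, which lies in an exon of Vmp1, was at 61272, 71495 and 78548 CPM in the lowest, median and highest control library. The SAFB libraries were at 62487, 66822 and 73353 CPM and the ERH libraries at 47029, 49569 and 61374 CPM. The highest ERH library lay just above the lowest control library, and SAFB lay within the control range. The SAFB log2 difference was -0.064 (SE 0.071, approximate 95% interval -0.20 to 0.074, edgeR, adjusted p = 0.462). In ERH it fell by 0.45 (SE 0.071, edgeR, adjusted p = 9.89e-06), a call lost with total counts (-0.14, edgeR, adjusted p = 0.157) and with spike-ins (-0.18, edgeR, adjusted p = 0.598). Its share of miRNA counts was 6.56% ± 0.556 in control and 5.97% ± 0.877 in ERH (SD, n = 6).

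In ERH knockout cells, then, 5 of 7 were called with TMM, all lower: mmu-mir-142a, mmu-mir-21a, mmu-mir-155, mmu-mir-146b and mmu-mir-150. Of all tested, 53.8% were called, 27.5% lower and 26.4% higher. 3 members had no overlap with control, against 37.4% of all. Their median log2 fold change was -0.38, beside -0.061 for all tested. With total counts 1 of 7 was called (mmu-mir-150, -0.76, edgeR, adjusted p = 0.0138), and with spike-ins 0 of 7. Of all 273 tested, 141 were called with total counts and 91 with spike-ins. Which scaling fits ERH cells was not tested.

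**Figure D2:**
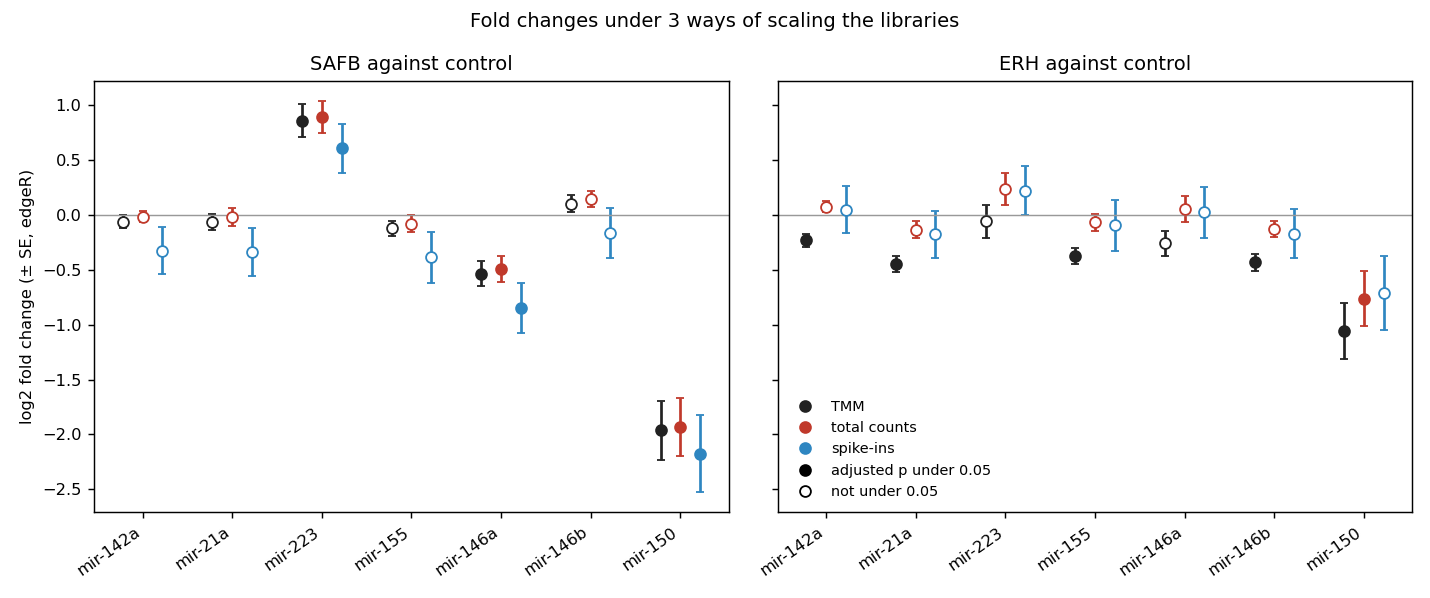
Log2 fold change with its SE (edgeR) of the 7 miRNAs in SAFB (left) and ERH (right) against control, with TMM, total-count and spike-in scaling. Filled points have an adjusted p under 0.05: mir-223, mir-146a and mir-150 are filled in SAFB with all 3 scalings, while in ERH 5 are filled with TMM, 1 with total counts and 0 with spike-ins.

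A ratio of 2 miRNAs within a library does not move with the scaling. Each member was set against mmu-mir-142a, and mmu-mir-146b against mmu-mir-146a, in 14 exact two-sided permutation tests of 6 against 6 libraries, adjusted together, in which 0.0022 is the smallest p possible. 5 ratios passed. In SAFB, mmu-mir-223 rose by 0.95 on the log2 scale relative to mmu-mir-142a (exact permutation p = 0.0022, adjusted p = 0.015), with no overlap between the groups. mmu-mir-150 fell by 2.05 (exact permutation p = 0.0022, adjusted p = 0.015) and mmu-mir-146a by 0.49 (exact permutation p = 0.0065, adjusted p = 0.018) relative to mmu-mir-142a. In ERH, mmu-mir-150 fell by 0.86 relative to mmu-mir-142a (exact permutation p = 0.0065, adjusted p = 0.018). Within batches 1, 2 and 3 that ERH ratio differed by -0.37, -0.75 and -1.46. In SAFB the within-batch differences were 1.20, 1.16 and 0.49 for mmu-mir-223, -1.41, -2.05 and -2.69 for mmu-mir-150, and -0.47, -0.37 and -0.62 for mmu-mir-146a. Permuted within batches as a block, the ERH ratio of mmu-mir-150 had an adjusted p of 0.0519 in the exact test. The ERH differences of mmu-mir-21a, mmu-mir-155 and mmu-mir-146b relative to mmu-mir-142a were -0.22, -0.15 and -0.21, each with an adjusted exact permutation p of 0.14. A ratio shows unequal change and not which of the 2 miRNAs moved.

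The balance of counts of the 2 miRNAs with the shared seed shifted in SAFB cells. How reads that fit both were assigned is not given, so the split between them is uncertain. Counts of mmu-mir-146b were 2.26, 3.07 and 3.56 times those of mmu-mir-146a in the lowest, median and highest control library. In SAFB libraries the ratio was 3.44, 4.80 and 6.46, and in ERH libraries 1.67, 2.7 and 3.42. The SAFB rise was 0.65 on the log2 scale (exact permutation p = 0.0043, adjusted p = 0.018), and within batches it was 0.65, 0.59 and 0.71. The SAFB and control ranges overlapped slightly. With any control or SAFB population left out, the SAFB rise ran from 0.56 to 0.74. It then no longer passed the adjusted exact test, in which few arrangements remain. The ERH difference was -0.17 (exact permutation p = 0.38, adjusted p = 0.45).

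**Figure D3:**
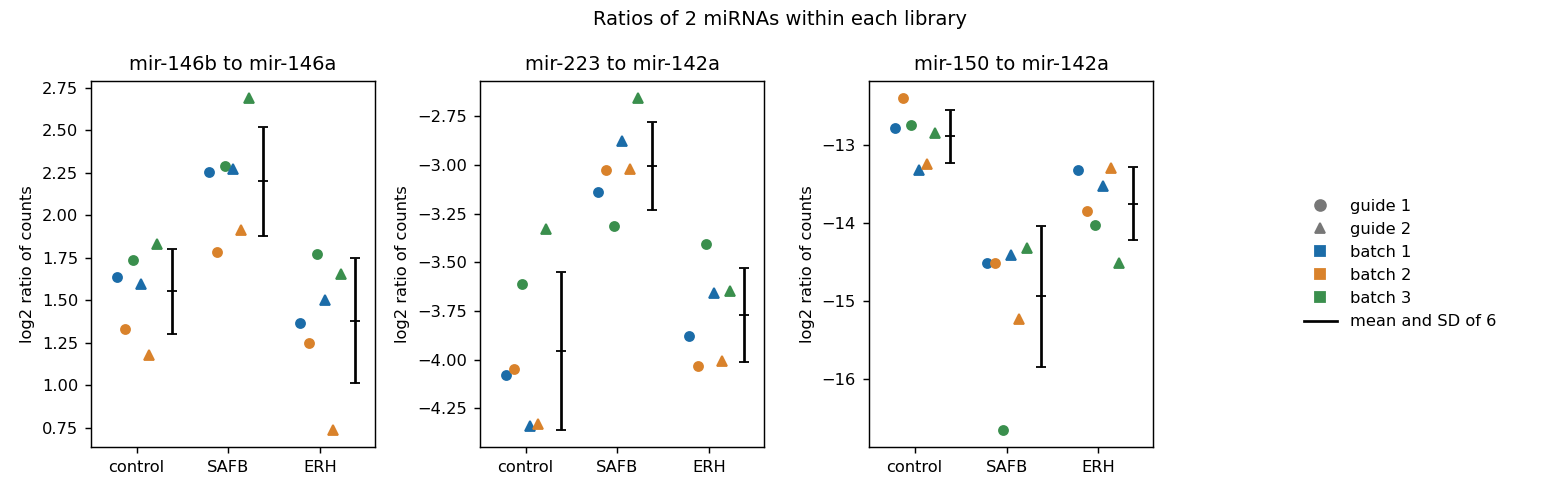
Log2 ratio of counts of mir-146b to mir-146a, mir-223 to mir-142a and mir-150 to mir-142a within each of the 18 libraries, by genotype. Circles are guide 1, triangles guide 2, colours the batches, and bars the mean and SD of 6 libraries. The SAFB libraries are high for the first 2 ratios and low for the third, where 1 SAFB library with 5 counts of mir-150 lies far below the others.

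ERH against SAFB, which tests the difference between the knockouts directly, called 6 of 7, against 39.6% of all tested. 5 members were lower in ERH, against 15.8% of all, and 1 was higher, against 23.8%. 3 had no overlap (mmu-mir-223, mmu-mir-21a and mmu-mir-146b), against 20.5% of all. The members' median was -0.25, beside 0.042 for all tested. mmu-mir-223 was at -0.92 with TMM (SE 0.15, edgeR, adjusted p = 3.41e-05), and mmu-mir-150 was higher in ERH by 0.90 (SE 0.28, edgeR, adjusted p = 0.0111). mmu-mir-146b was at -0.53, mmu-mir-21a at -0.38, mmu-mir-155 at -0.25 and mmu-mir-142a at -0.17 (edgeR, adjusted p = 8.59e-06, 0.000142, 0.00667 and 0.0247). mmu-mir-146a was at 0.28 (SE 0.11, edgeR, adjusted p = 0.0571), and with batch as a block at the same 0.28 (SE 0.070, edgeR, adjusted p = 0.00263). With total counts 4 of 7 were called (mmu-mir-223, mmu-mir-146a, mmu-mir-146b and mmu-mir-150), with mmu-mir-142a at 0.092 and mmu-mir-155 at 0.011. With spike-ins 2 were called, mmu-mir-146a at 0.87 (edgeR, adjusted p = 0.00072) and mmu-mir-150 at 1.46 (edgeR, adjusted p = 0.000186), while mmu-mir-223 was at -0.38 (edgeR, adjusted p = 0.147) and mmu-mir-146b at -0.0074 (edgeR, adjusted p = 0.981). The mmu-mir-142a call was lost with a minimum mean of 100 counts (-0.048, edgeR, adjusted p = 0.571) and with the DESeq2 Wald test (-0.14, adjusted p = 0.0652). It was also lost without the SAFB guide 1, SAFB guide 2 or ERH guide 2 population (-0.16, -0.18 and -0.12, edgeR, adjusted p = 0.107, 0.0782 and 0.199). Among single libraries it was lost without SAFB guide 1 batch 3 (-0.15, edgeR, adjusted p = 0.0565), without ERH guide 1 batch 1 (-0.15, edgeR, adjusted p = 0.0581), ERH guide 2 batch 2 (-0.16, edgeR, adjusted p = 0.0512) or ERH guide 2 batch 3 (-0.14, edgeR, adjusted p = 0.0603). The mmu-mir-150 call was lost without the SAFB guide 1 population (0.74, edgeR, adjusted p = 0.0613) or the ERH guide 1 population (0.87, edgeR, adjusted p = 0.0648), and the mmu-mir-155 call without the ERH guide 1 population (-0.23, edgeR, adjusted p = 0.0742) or with a minimum mean of 100 counts (-0.13, edgeR, adjusted p = 0.184). mmu-mir-146a passed the test with counts summed per guide population (0.27, edgeR, adjusted p = 0.0224), with limma voom (0.28, adjusted p = 0.0275), with DESeq2's size factors in edgeR (0.31, adjusted p = 0.0386), with the DESeq2 Wald test (0.31, adjusted p = 0.0349) and with a minimum mean of 100 counts (0.40, edgeR, adjusted p = 0.0111). It also passed without SAFB guide 1 batch 2 (0.35), SAFB guide 2 batch 2 (0.34) or ERH guide 1 batch 3 (0.34), with edgeR adjusted p = 0.0198, 0.0247 and 0.0171.

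No member was called between guide 2 and guide 1 of a genotype, where edgeR called 0% of all tested in control, 0% in SAFB and 0.366% in ERH. At an unadjusted p under 0.05 these were 7, 10 and 18 miRNAs. The 1 called, mmu-mir-218 in ERH (-1.41, edgeR, adjusted p = 0.00163), is no member and is named after its value was seen. The largest guide difference among the members was that of mmu-mir-150 in control, at -0.47 (SE 0.35, edgeR, adjusted p = 0.969).

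Over the 18 libraries the members did not move as one. As a description on the log2 CPM scale, with libraries that share genotype and batch, Pearson's r was 0.88 between mmu-mir-21a and mmu-mir-155, 0.84 between mmu-mir-21a and mmu-mir-146b, -0.75 between mmu-mir-223 and mmu-mir-146a, and -0.31 between mmu-mir-146a and mmu-mir-146b. Among 108 miRNAs compared, the one most like mmu-mir-142a was mir-30e (0.86), and the one most like mmu-mir-21a was mir-598 (0.86). For mmu-mir-223 these were mir-140 (0.83) and mir-449a (0.83), for mmu-mir-155 mir-18a (0.82), for mmu-mir-146a mir-5099 (0.81) and for mmu-mir-146b mir-16 (0.89). mmu-mir-150 was most like mir-19b (0.90), mir-23b (0.89) and mir-29c (0.87), whose SAFB log2 fold changes were -0.85, -1.39 and -2.83 and whose ERH ones were -0.43, -0.60 and -1.21.

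Of 31 other miRNAs known from haematopoiesis, 27 were tested. In SAFB 20 were called (74.1%, against 56% of all tested), 11 higher and 9 lower, with a median of -0.062 beside 0.0083 for all. The red cell miRNAs mir-451a and mir-144 were among the 4 under the filter, with at most 6 and 2 counts. Among those called with a mean of at least 100 CPM in either group, mir-15a, whose reporter was used for sorting, was lowest at -3.61 (SE 0.14, edgeR, adjusted p = 1.11e-16). mir-181b of developing lymphocytes followed at -2.56 (SE 0.12, edgeR, adjusted p = 6.58e-15), while mir-181a, of close sequence, was at 0.58. mir-125a and mir-10a were highest above that level, at 3.61 and 3.46 (SE 0.23 and 0.25, edgeR, adjusted p = 3.6e-12 and 4.12e-11). Both reached it through their SAFB means alone, 124 and 349 CPM against 10.1 and 32.0 CPM in control. Their place therefore rests partly on the cut, which the rise itself helped them pass. mir-99a, at 3.63, stayed under the level with 16.9 CPM in SAFB.

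In ERH 24 of the 27 were called (88.9%, against 53.8% of all tested), 11 higher and 13 lower, with a median of -0.14 beside -0.061 for all. Above the same level, mir-15a was at -2.59 and mir-181b at -0.63, and mir-125a was at 4.85 and mir-10a at 5.00. mir-125a and mir-10a again reached it through the knockout mean alone, at 294 and 1018 CPM in ERH. mir-99a, at 5.13, stayed under the level with 47.5 CPM in ERH. mir-181a rose by 0.40 (SE 0.10, edgeR, adjusted p = 0.00202). The ERH value of mir-181b was -0.34 with spike-ins (edgeR, adjusted p = 0.291). ERH against SAFB called 16 (59.3%, against 39.6% of all tested), 12 higher and 4 lower, with a median of 0.090 beside 0.042 for all. Above the level of 100 CPM, mir-181b was at 1.92 and mir-34a at 2.16 (SE 0.12 and 0.50, edgeR, adjusted p = 6.59e-12 and 0.00125), while mir-16 was at -0.49 and mir-22 at -0.37 (SE 0.047 and 0.11, edgeR, adjusted p = 2.87e-08 and 0.012). mir-34a had 118 ± 92.6 CPM in ERH and 26.5 ± 10.4 CPM in SAFB (SD, n = 6), so it reached that level through its ERH mean alone, and the ERH and SAFB libraries overlapped. The list was chosen with results of these data known, so its shares describe it and test nothing.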

How the data were processed

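Small-RNA libraries were made with a QIAseq miRNA kit from total RNA mixed with spike-in RNAs, per the labels' protocols. The deposited values are raw whole-number read counts per precursor, made by the authors. SAMtools is named in the submitters' processing notes. The aligner, genome build, treatment of multiply mapped reads and use of molecular identifiers are not given in the sources used here, so depth speaks to counting error only. Libraries of one population differed beyond sampling noise (chi-square per degree of freedom 27.5 to 157.1), so each was kept. Precursors were filtered by filterByExpr (minimum count 10, by population), scaled by TMM without spike-ins and tested over all 18 libraries in edgeR 4.0.16 (quasi-likelihood F test; R 4.3.3, limma 3.58.1), with Benjamini-Hochberg adjustment over 273 miRNAs and calls under 0.05. A standard error is the log2 fold change divided by the square root of F, and an approximate 95% interval is 1.96 SE on either side. Log2 CPM used a prior count of 2. Ratios were tested with exact permutations (SciPy 1.17.1). DESeq2 1.42.0, other scalings, filters, blocks and left-out libraries were alternatives. The fit was also run on simulated counts with the same spread setting for every miRNA and no population or batch differences. That run does not measure its error rate on these data.

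The members and lists were chosen with earlier results of these data known. All members were named, with the highest and lowest 2 called miRNAs of the other haematopoietic list with a mean of at least 100 CPM and, by Pearson's r, those most like each member. The batch labels pair libraries. Their deviations from the mean of their population correlated by 0.0283 on average within a batch (45 pairs, -0.247 to 0.32) and by -0.0142 between batches (90 pairs).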

Additional observations from a re-analysis of the deposited data

Results flagged for a closer look

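Of 21 sets of 6 libraries, 1 miRNA in 1 genotype each, 2 had a library far from the others by Dixon's ratio of gap to range, and chance alone gives about 1 in 20. mmu-mir-146a in control guide 2 batch 2 had a ratio of 0.662, at 2396 CPM. mmu-mir-146b in SAFB guide 2 batch 3 had a ratio of 0.638, at 6813 CPM. The ERH effect differed from the SAFB effect in the direct edgeR test for 6 miRNAs. On the log2 scale, ERH minus SAFB was -0.17 for mmu-mir-142a, -0.38 for mmu-mir-21a, -0.92 for mmu-mir-223, -0.25 for mmu-mir-155, -0.53 for mmu-mir-146b and 0.90 for mmu-mir-150. The values for mmu-mir-142a, mmu-mir-21a and mmu-mir-155 have the opposite sign with spike-in scaling. With spike-ins mmu-mir-146b was at -0.0074 (edgeR, adjusted p = 0.981) and mmu-mir-223 at -0.38 (edgeR, adjusted p = 0.147), neither of them called.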

How the results depend on the processing

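In SAFB, the calls and directions of mmu-mir-223, mmu-mir-146a and mmu-mir-150 were kept in every alternative that gave a value; mmu-mir-150 has none with a minimum mean of 100 counts. In ERH they depend on scaling, and the cause was not tested. ERH members called were 1 with total counts (141 of all miRNAs called) and 0 with spike-ins (91 of all miRNAs called). With a minimum mean of 100 counts, which tests fewer miRNAs and leaves out mmu-mir-150, they were 3 (100 of all miRNAs called). Spike-ins called 2 members in ERH against SAFB (112 of all miRNAs called), and 96 and 110 miRNAs between the guides of control and of ERH.

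These log2 values changed sign. In ERH with total counts, mmu-mir-142a was at 0.073, mmu-mir-223 at 0.24 and mmu-mir-146a at 0.049, and with spike-ins at 0.047, 0.22 and 0.022. mmu-mir-223 in ERH was at 0.0040 with DESeq2's size factors in edgeR, 0.0040 with DESeq2's Wald test, 0.068 with a minimum mean of 100 counts and 0.048 with only the 2 genotypes. In ERH against SAFB, mmu-mir-142a and mmu-mir-155 were at 0.092 and 0.011 with total counts, and mmu-mir-142a, mmu-mir-21a and mmu-mir-155 at 0.37, 0.16 and 0.29 with spike-ins. mmu-mir-146b in SAFB was at -0.16 with spike-ins.

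Left-out libraries or populations were fitted with the miRNAs and TMM factors kept and, as an alternative added after seeing the data, with both estimated again. Over all of these, values in SAFB ran from -0.087 to 0.10 for mmu-mir-142a, -0.13 to 0.10 for mmu-mir-21a and -0.17 to 0.024 for mmu-mir-155, and mmu-mir-223 in ERH from -0.19 to 0.11. Ratios past the threshold were 0 to 4 without a population, where few arrangements remain, and the ratios to mmu-mir-142a ran from -0.058 to 0.057 for mmu-mir-21a in SAFB and -0.15 to 0.080 for mmu-mir-146a in ERH.

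With batch as a block, 155 miRNAs were called in SAFB, 146 in ERH and 110 between them. Among members it changed the call of mmu-mir-146a in ERH and in ERH against SAFB, and of the ERH ratio of mmu-mir-150. The low counts of mmu-mir-150 limit its precision.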
